A study of Homo sapiens with 2 samples.

Results

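Aldehyde dehydrogenases are enzymes that oxidize aldehydes to carboxylic acids with NAD or NADP, and in doing so they clear reactive aldehydes and make signals such as retinoic acid. The 10 genes of the family below were sought by name in an expression table of 2 libraries of the human glioblastoma line A172, and 9 of the 10 had a row among the 15603 genes listed. ALDH2 had no row of that name and is not analysed here. All 9 genes reached 1 FPKM in both libraries (a level per transcript length and library depth), so none entered through the filter on low values in 1 library alone.

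The resistant library came from A172-r#6, labelled as a resistant culture kept with temozolomide (TMZ), the alkylating drug used against glioblastoma. The series text describes the resistant cells as a clone selected with TMZ. The parental library came from parental A172, labelled as kept without the drug. There was 1 library of each, so the effects of being a clone, of the selection and of the drug cannot be told apart. No difference below has a replicate check, and no p-value was computed. Among markers of the line, vimentin (VIM) had 804 FPKM in the resistant and 632 FPKM in the parental library, SPARC had 3856 FPKM in the resistant and 2854 FPKM in the parental library, and GFAP had no row. Of the 7 tested glioma and mesenchymal markers, FN1 was at least 2-fold higher, at 10.3 FPKM in the resistant and 4.45 FPKM in the parental library. NES, at 5.08 FPKM in the resistant and 33.7 FPKM in the parental library, and SOX2, at 0.253 FPKM in the resistant and 2.23 FPKM in the parental library, were at least 2-fold lower, and SOX2 passed the filter through the parental library alone. These calls were made on FPKM + 1 and are 14.3% higher and 28.6% lower, beside 4.59% and 3.82% of all genes tested. The other tested markers stayed under that threshold. OLIG2 had 3.42 FPKM in the resistant and 1.43 FPKM in the parental library. Its plain ratio was 2.39, but its log2 fold on FPKM + 1 was 0.86. CD44 had 161 FPKM in the resistant and 83.1 FPKM in the parental library. Of the markers of other cell types with a row, the leukocyte gene PTPRC had 0.485 FPKM in the resistant and 1.83 FPKM in the parental library. CD68, PECAM1 and EPCAM stayed under 1 FPKM in both, with PECAM1 at 0.0225 FPKM in the resistant and 0.921 FPKM in the parental library.

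The family is divided by substrate. ALDH1A3 makes retinoic acid from retinaldehyde and is known as a marker of stem-like and mesenchymal glioma cells, and the mitochondrial ALDH1B1 acts on acetaldehyde and retinaldehyde. ALDH3A2, in the endoplasmic reticulum, and ALDH3B1 oxidize fatty aldehydes from lipids. ALDH18A1 and ALDH4A1 stand at opposite ends of proline metabolism, since ALDH18A1 makes pyrroline-5-carboxylate (P5C) from glutamate and ALDH4A1 turns P5C back into glutamate. ALDH7A1 works in lysine breakdown, ALDH6A1 in that of valine and thymine, and ALDH9A1 in carnitine synthesis.

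Promoter windows are shown for 3 members because they mark the ends of the comparison: ALDH1A3 and ALDH1B1 had the highest folds and ALDH7A1 the lowest. Each window runs from 250 bases before to 50 bases after a RefSeq gene start (build GRCh38.p14). They lie at chr15:100879581-100879880 on the plus strand for ALDH1A3, chr9:38392452-38392751 on the plus strand for ALDH1B1, and chr5:126595170-126595469 on the minus strand for ALDH7A1. Each is written 5′ to 3′ on the gene's strand, with matches to the GC box (GGGCGG) and the CCAAT box (CCAAT) on either strand in capitals.
ALDH1A3: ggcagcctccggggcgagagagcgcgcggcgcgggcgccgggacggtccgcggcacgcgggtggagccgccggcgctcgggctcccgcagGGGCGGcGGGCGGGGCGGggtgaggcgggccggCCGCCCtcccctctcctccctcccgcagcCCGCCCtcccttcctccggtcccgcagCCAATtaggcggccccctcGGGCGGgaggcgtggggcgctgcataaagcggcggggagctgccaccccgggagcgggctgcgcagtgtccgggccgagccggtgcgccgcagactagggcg
ALDH1B1: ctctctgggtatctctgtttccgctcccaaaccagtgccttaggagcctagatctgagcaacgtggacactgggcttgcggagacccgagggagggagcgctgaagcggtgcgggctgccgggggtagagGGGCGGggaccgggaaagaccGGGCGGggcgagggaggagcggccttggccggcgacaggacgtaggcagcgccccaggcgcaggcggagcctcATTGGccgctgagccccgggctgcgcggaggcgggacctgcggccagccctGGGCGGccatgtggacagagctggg
ALDH7A1: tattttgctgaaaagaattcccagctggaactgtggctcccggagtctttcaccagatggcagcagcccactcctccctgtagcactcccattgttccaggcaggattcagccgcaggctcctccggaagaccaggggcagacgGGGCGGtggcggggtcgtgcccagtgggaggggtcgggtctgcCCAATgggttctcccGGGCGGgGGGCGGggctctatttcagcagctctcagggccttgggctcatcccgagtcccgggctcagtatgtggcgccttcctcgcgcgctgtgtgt
The ALDH1A3 window was 81.7% G and C and held 46 CpG dinucleotides, more than 97.1% of the 35116 windows in the table, whose median was 14. ALDH1B1 held 27 CpG and ALDH7A1 held 17. Of the members not shown, ALDH18A1 held 31, ALDH9A1 held 26 and ALDH6A1 held 15. The 2 windows each of the rest held 12 and 27 in ALDH3A2, 4 and 12 in ALDH3B1, and 25 and 2 in ALDH4A1. Over all members the CpG counts did not follow the order of the folds. GC boxes numbered 6 in ALDH1A3, 1 pair of them overlapping by 1 base, and 3 each in ALDH1B1 and ALDH7A1. In the windows of the other members they ran from 0 to 4, the 4 in a window of ALDH3A2. Each of the 3 windows held 1 CCAAT box. For comparison, 45.0% of all windows held a GC box and 34.6% a CCAAT box. All 9 members had at least 1 window, 12 in all. No member window held the TATA box (TATAAA, in 11.5% of all windows), the AP-1 site (TGACTCA or TGAGTCA, 4.95%), the core of the antioxidant response element (TGACNNNGC, 13.3%), the cyclic AMP response element (TGACGTCA, 1.85%) or the amino acid response element (TGATGCAA, 0.866%), each searched on both strands. The AGGTCA core of retinoic acid receptor sites, in 13.8% of all windows, was matched only in 1 of the 2 windows of ALDH4A1. The MYC E-box (CACGTG, 7.26% of all windows) was matched in ALDH18A1 and in 1 of 2 windows each of ALDH3A2 and ALDH3B1. These matches are descriptions of letters in the window and not measured binding.

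One of the 9 members, ALDH1A3, was at least 2-fold higher in the resistant library, and none was at least 2-fold lower. The fold was taken on FPKM + 1, and genes with 1 FPKM or more in either library were tested. By the same rule 4.59% of the 13937 genes tested were higher and 3.82% lower, so 1 gene of 9 (11.1%) is the smallest count above 0 that the family could show. On the plain FPKM ratio the result was the same, with ALDH1A3 higher and no member lower, beside 8.07% of genes higher and 7.40% lower. The median log2 fold of the 9 members was -0.10, beside 0.04 over all genes tested. At a 1.5-fold threshold, ALDH1A3, ALDH1B1 and ALDH3B1 were higher and ALDH7A1 and ALDH3A2 lower, which is 33.3% and 22.2% of the members, beside 14.5% and 12.0% of all genes tested. In bulk RNA, fewer cells that express a gene and less RNA per cell cannot be told apart.

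**Figure D1:**
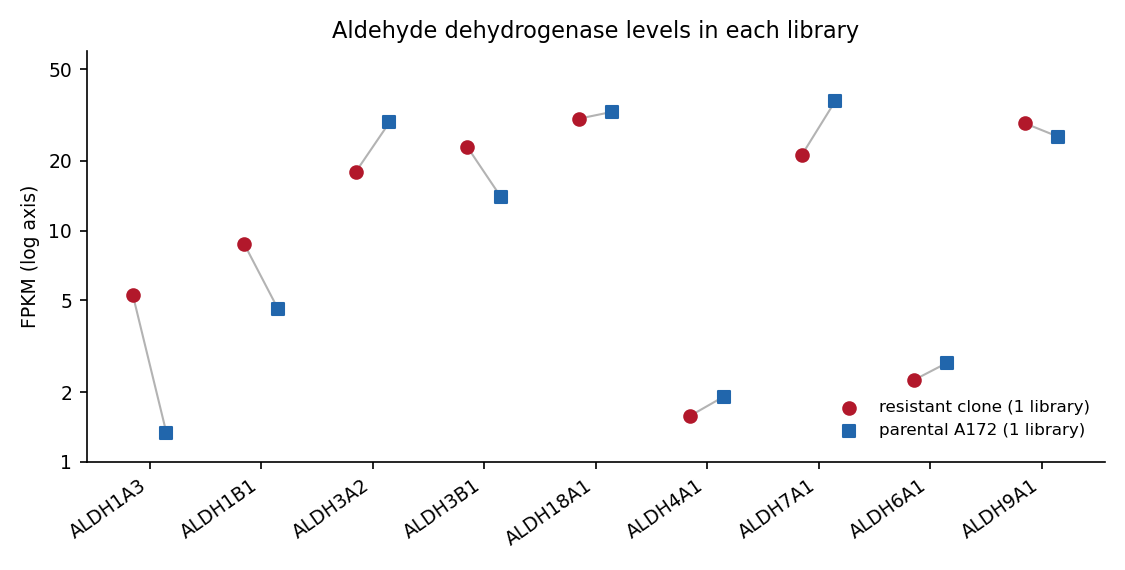
FPKM of the 9 aldehyde dehydrogenases on a log axis, with the resistant clone (circle) left of parental A172 (square) for each gene, 1 library each and joined by a line. ALDH1A3 has the steepest line, at 5.23 FPKM in the resistant and 1.33 FPKM in the parental library, and ALDH7A1 and ALDH3A2 run the other way.

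Of the enzymes that make retinoic acid or oxidize short aldehydes, ALDH1A3 (ENSG00000184254, chromosome 15, 100877714 to 100916626, plus strand, GRCh38 as in GENCODE release 29) had 5.23 FPKM in the resistant and 1.33 FPKM in the parental library. Its plain FPKM ratio was 3.93, and its log2 fold on FPKM + 1 was 1.42, at least as large as in all but 1.51% of the genes tested. In the parental library ALDH1A3 was the least abundant of the 9 members, above only 9.28% of the genes tested, and in the resistant library it ranked above 36.1% of them. It stayed at the low end of the family in both libraries, in place 7 of 9 in the resistant and in place 9 in the parental one. ALDH1B1 (ENSG00000137124, chromosome 9, 38392664 to 38398661, plus strand) had 8.70 FPKM in the resistant and 4.59 FPKM in the parental library, a plain ratio of 1.90 and a log2 fold of 0.80, under the 2-fold threshold on either scale. ALDH1B1 remained the more abundant of the pair, at 1.66 times the ALDH1A3 level in the resistant and 3.44 times in the parental library.

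The members that oxidize fatty aldehydes stood on opposite sides of 0. ALDH3A2 (ENSG00000072210, chromosome 17, 19648136 to 19677598, plus strand), the enzyme lost in Sjögren-Larsson syndrome, had 18.0 FPKM in the resistant and 29.4 FPKM in the parental library (log2 fold -0.68). ALDH3B1 (ENSG00000006534, chromosome 11, 68008578 to 68029282, plus strand) had 22.9 FPKM in the resistant and 14.0 FPKM in the parental library (log2 fold 0.68). The order of these 2 genes therefore differed between the libraries, with ALDH3A2 at 0.784 times the ALDH3B1 level in the resistant and 2.10 times in the parental library. Neither passed the 2-fold threshold.

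In proline metabolism, ALDH18A1 (ENSG00000059573, chromosome 10, 95605929 to 95656706, minus strand) had 30.5 FPKM in the resistant and 32.7 FPKM in the parental library, with a log2 fold of -0.10. ALDH4A1 (ENSG00000159423, chromosome 1, 18871430 to 18902781, minus strand) had 1.58 FPKM in the resistant and 1.91 FPKM in the parental library, with a log2 fold of -0.17. The listed RNA level of the P5C-making enzyme was thus far above that of the P5C-oxidizing one, by 19.3 times in the resistant and 17.1 times in the parental library. The ALDH4A1 level in these ratios is uncertain, because the gene shares exon bases with another on its own strand, as given below. Protein was not measured. In the resistant library ALDH18A1 was the most abundant member and ALDH4A1 the least abundant.

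Among the remaining enzymes of amino acid breakdown, ALDH7A1 (ENSG00000164904, chromosome 5, 126531200 to 126595418, minus strand), whose loss causes pyridoxine-dependent epilepsy, had 21.3 FPKM in the resistant and 36.4 FPKM in the parental library. This was the lowest fold of the 9 members, a log2 fold of -0.75, and 7.68% of the genes tested had one as low or lower. ALDH7A1 was the most abundant member in the parental library and held place 4 in the resistant one. ALDH6A1 (ENSG00000119711, chromosome 14, 74056850 to 74084493, minus strand) had 2.25 FPKM in the resistant and 2.67 FPKM in the parental library (log2 fold -0.18), among the 3 lowest levels of the family in each. In carnitine synthesis, ALDH9A1 (ENSG00000143149, chromosome 1, 165662216 to 165698863, minus strand) had 29.1 FPKM in the resistant and 25.4 FPKM in the parental library (log2 fold 0.19).

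**Figure D2:**
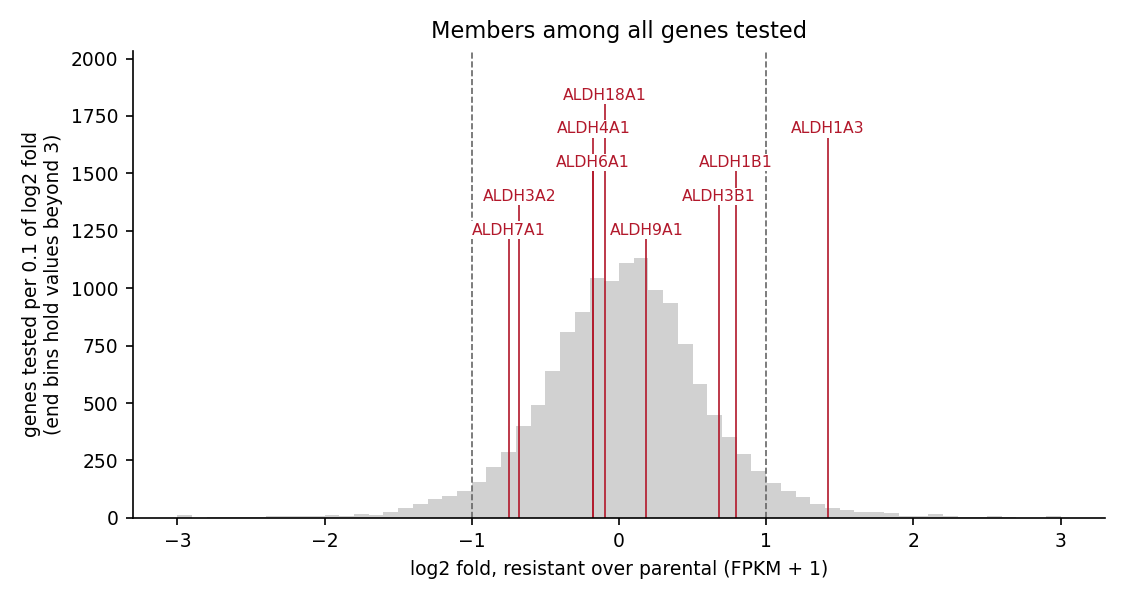
Histogram of the log2 fold, resistant over parental on FPKM + 1, for all 13937 genes tested, with red lines at the 9 aldehyde dehydrogenases and dashed lines at 2-fold. ALDH1A3 is the only member past a dashed line, at 1.42, and the end bins hold genes beyond 3.

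Set against the distribution of folds, 3 members lay above the upper quartile of all genes tested (0.38), 2 below the lower quartile (-0.31) and 4 between them. Only ALDH1A3 lay above the 95th percentile of all genes (0.97), and no member lay below the 5th (-0.90). Folds were positive for 4 of the 9 members (44.4%), beside 53.3% of all genes tested.

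Summed over the 9 members, the level was 139.6 FPKM in the resistant and 148.4 FPKM in the parental library, a ratio of 0.941. The FPKM of all listed genes summed to 323932 in the resistant and 299594 in the parental library. The ratio of the member sums was 0.889 with upper quartile scaling and 0.910 with the median fold set to 0. ALDH18A1, ALDH9A1, ALDH7A1 and ALDH3A2 together made up 70.8% of the member sum in the resistant and 83.5% in the parental library. ALDH3B1 accounted for 16.4% in the resistant and 9.41% in the parental library. ALDH1A3, the gene with the largest fold, accounted for 3.75% of the sum in the resistant and 0.898% in the parental library. From highest to lowest, the resistant order was ALDH18A1, ALDH9A1, ALDH3B1, ALDH7A1, ALDH3A2, ALDH1B1, ALDH1A3, ALDH6A1 and ALDH4A1. The parental order was ALDH7A1, ALDH18A1, ALDH3A2, ALDH9A1, ALDH3B1, ALDH1B1, ALDH6A1, ALDH4A1 and ALDH1A3. With 1 library each, no spread is known that would separate neighbours in these orders.

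**Figure D3:**
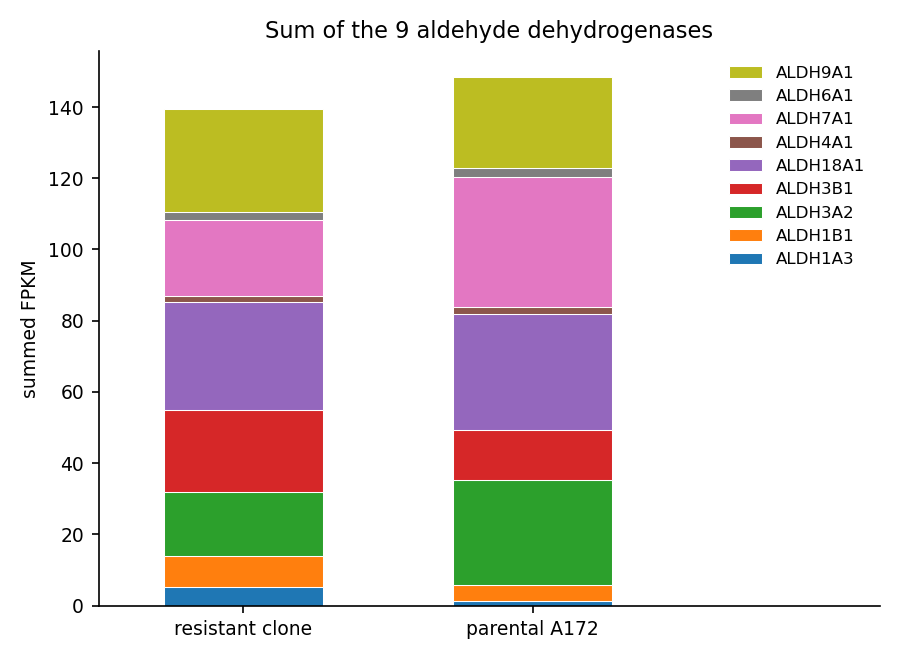
Stacked bars of FPKM summed over the 9 aldehyde dehydrogenases, resistant clone at left and parental A172 at right, 1 library each. The bars reach 139.6 FPKM in the resistant and 148.4 FPKM in the parental library, with a thinner ALDH7A1 and ALDH3A2 layer and a thicker ALDH3B1 layer in the resistant one.

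The authors' deposited table also holds q-values of their own comparison of the 2 libraries, whose test is not stated. By the authors' deposited table, a q-value under 0.05 was given for 3 members, with 0.000183 for ALDH1A3, 0.000620 for ALDH7A1 and 0.0172 for ALDH3A2. That is 1 member higher and 2 lower, beside 5.13% of all 15603 genes higher and 3.98% lower in the authors' deposited table. The other 6 ran from 0.186 for ALDH3B1 to 0.914 for ALDH18A1 in the authors' deposited table. ALDH1B1, whose plain ratio was larger in size than that of ALDH7A1, had a q-value of 0.282 there. Such values compare 2 libraries and not the conditions.

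Some member levels are uncertain because reads can belong to more than 1 gene. Whether strand was used in counting is not given in the sources used here, although the labels name a stranded kit. ALDH1A3 shares 1585 exon bases with the antisense gene RP11-66B24.4 (AC015712.2 in GENCODE release 29), which had 0.725 FPKM in the resistant and 0.300 FPKM in the parental library. Without strand, reads from the shared bases cannot be told apart, and both genes had the higher listed value in the resistant library. ALDH6A1 shares 670 exon bases with BBOF1 on the opposite strand, which had 0.972 FPKM in the resistant and 1.48 FPKM in the parental library. ALDH4A1 shares 1517 exon bases with AL080251.1 on its own strand, and 42.9% of the 50-base words of its longest coding transcript also occur in that gene. Of the ALDH7A1 words, 7.12% occur in the pseudogene ALDH7A1P1. The share was 0.413% for ALDH1A3, 0 for ALDH18A1 and at most 4.29% for the other 5 members.

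A clone can differ from its parent in copy number, so the genes around each member are given beside it. For each member these were the 5 nearest tested genes on either side. Next to ALDH1A3, LRRK1 begins 2589 bases past its end on the same strand, and this kinase gene was also called higher, with 4.81 FPKM in the resistant and 1.44 FPKM in the parental library (log2 fold 1.25). On the other side, ASB7 had 6.40 FPKM in the resistant and 4.32 FPKM in the parental library (0.47). The 10 neighbours of ALDH1A3 had a median log2 fold of 0.22, with 5 positive and 5 negative, beside -0.12 for the 455 tested genes of chromosome 15. Every one of the 10 had a lower fold than ALDH1A3. ALDH1B1 and ALDH3B1 also exceeded all 10 of their neighbours, whose medians were 0.09 and 0.22. Around ALDH7A1 the median was -0.13, with folds from -0.77 to 1.15, and the genes on either side of it ran in opposite directions. PHAX had 10.8 FPKM in the resistant and 4.35 FPKM in the parental library (log2 fold 1.15), and GRAMD3 had 4.07 FPKM in the resistant and 7.54 FPKM in the parental library (-0.75). Around ALDH3A2 the median was -0.18, and around the other 4 members it ran from -0.21 for ALDH6A1 to 0.32 for ALDH18A1. The part of copy number in these folds was not tested.

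**Figure D4:**
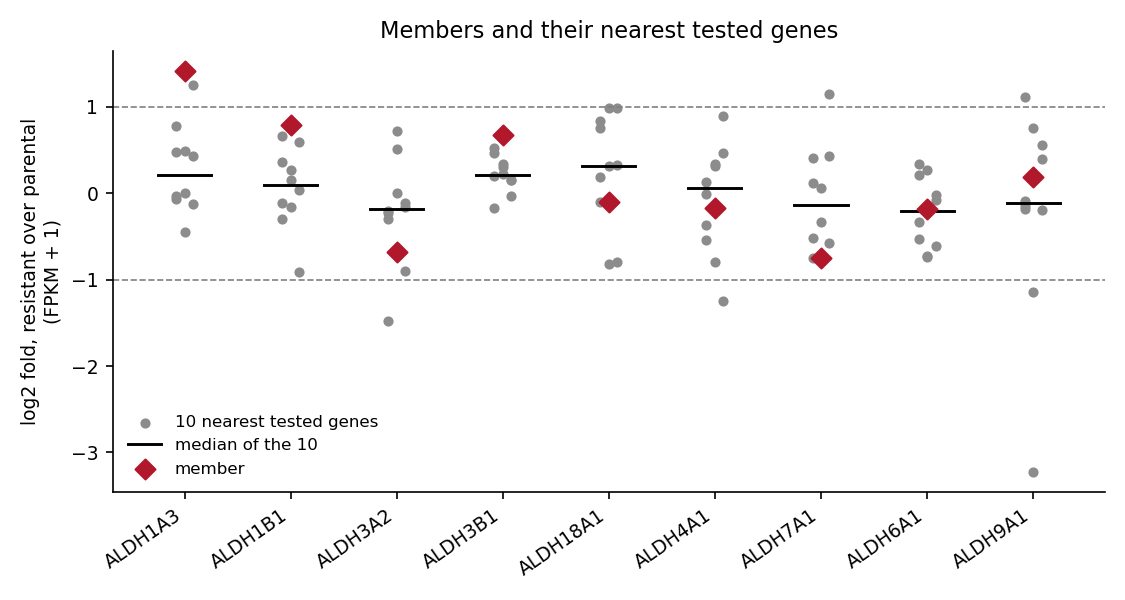
The log2 fold, resistant over parental on FPKM + 1, of each aldehyde dehydrogenase (red diamond), of its 10 nearest tested genes (grey) and of their median (black bar), with dashed lines at 2-fold. ALDH1A3, ALDH1B1 and ALDH3B1 sit above all of their neighbours, and the LRRK1 point at 1.25 lies just under ALDH1A3.

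Enzymes and carriers that act beside the members were read from 9 lists, which together held 84 tested genes. Of these, 7 were called higher (8.33%) and 4 lower (4.76%), beside 4.59% and 3.82% of all genes tested. On the plain FPKM ratio 7 of the 84 were higher and 6 lower, beside 8.07% and 7.40% of all genes. At a 1.5-fold threshold 11 were higher and 13 lower, beside 14.5% and 12.0%. How the lists compared with all genes thus depended on the rule. Around ALDH1A3, 2 of 13 retinoid genes were higher and 1 lower, with a list median of 0.06. The higher ones were the retinol importer STRA6, at 19.6 FPKM in the resistant and 8.95 FPKM in the parental library, and the retinaldehyde reductase DHRS3, at 1.18 FPKM in the resistant and 0.0190 FPKM in the parental library. The lower one was the retinol dehydrogenase RDH5, at 0.582 FPKM in the resistant and 2.17 FPKM in the parental library. None of the tested retinoic acid or retinoid X receptors was called. STRA6 came under the threshold with upper quartile scaling, at a log2 fold of 0.97.

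Beside ALDH18A1 and ALDH4A1, 1 of 8 genes of proline and glutamate metabolism was higher and 1 lower (median 0.04). PYCR1, which turns P5C into proline, had 61.4 FPKM in the resistant and 26.7 FPKM in the parental library. The lower one was ornithine aminotransferase OAT, which makes P5C as ALDH18A1 does but from ornithine, at 12.5 FPKM in the resistant and 27.4 FPKM in the parental library. Beside ALDH6A1, 1 of 20 genes of branched-chain amino acid breakdown was higher and none lower (median -0.36). Of the 20 folds 5 were positive, beside 53.3% of all genes tested. The higher one was the cytosolic transaminase BCAT1, at 32.8 FPKM in the resistant and 11.4 FPKM in the parental library. Beside ALDH7A1, none of 6 lysine genes was called (median 0.04), the largest folds being those of GCDH, at 9.95 FPKM in the resistant and 6.88 FPKM in the parental library, and HYKK, at 1.59 FPKM in the resistant and 2.16 FPKM in the parental library.

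Beside ALDH3A2 and ALDH3B1, 2 of 10 genes of fatty aldehyde and sphingolipid metabolism were higher and none lower (median 0.34). Sphingosine kinase SPHK1 had 10.4 FPKM in the resistant and 1.83 FPKM in the parental library, and the fatty acyl-CoA reductase FAR2 had 5.14 FPKM in the resistant and 2.06 FPKM in the parental library. FAR2 came under the threshold with upper quartile scaling, at a log2 fold of 0.94, and also with the median fold set to 0. Of 4 genes of alcohol and acetate metabolism, the mitochondrial acetyl-CoA synthetase ACSS1 was higher, at 1.79 FPKM in the resistant and 0.231 FPKM in the parental library, and none was lower (median -0.23). Beside ALDH9A1, none of 7 carnitine genes was called (median 0.00), with CROT at 5.04 FPKM in the resistant and 8.85 FPKM in the parental library and SLC25A20 at 6.21 FPKM in the resistant and 9.13 FPKM in the parental library. Among 13 genes listed as carbonyl reductases, some of which remove aldehydes by reduction, none was higher and 2 were lower (median -0.18). These were AKR1C3, at 5.13 FPKM in the resistant and 15.2 FPKM in the parental library, and AKR1B10, at 0.0758 FPKM in the resistant and 1.47 FPKM in the parental library. Close relatives of AKR1C3 can share its reads. None of the other 3 family genes with a row was called. ALDH16A1 had 5.21 FPKM in the resistant and 8.69 FPKM in the parental library. The succinic semialdehyde dehydrogenase ALDH5A1 had 2.04 FPKM in the resistant and 2.90 FPKM in the parental library, and the folate enzyme ALDH1L2 had 1.22 FPKM in the resistant and 1.09 FPKM in the parental library. DHRS3, RDH5, ACSS1 and AKR1B10 were under 1 FPKM in 1 library and passed the filter through the other.

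**Figure D5:**
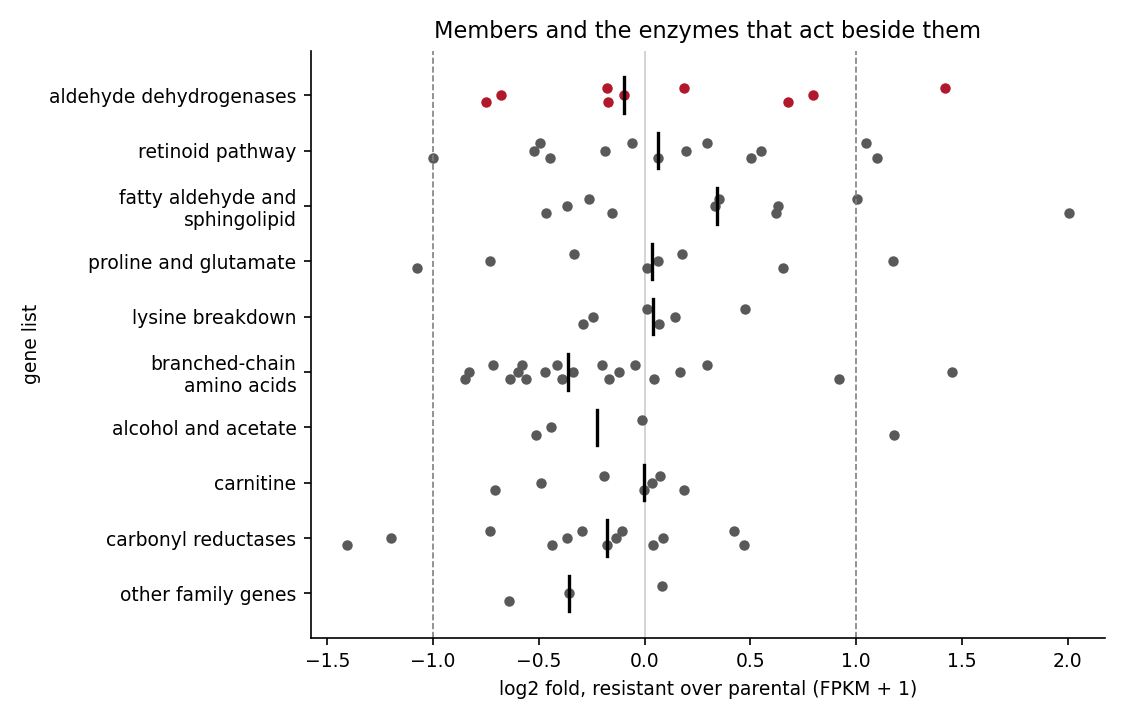
The log2 fold, resistant over parental on FPKM + 1, of the tested genes of each list (points) with the list median (black bar) and dashed lines at 2-fold; the aldehyde dehydrogenases are red. Their median is -0.10, and the farthest point of all is SPHK1 in the fatty aldehyde and sphingolipid list.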

How the data were processed

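RNA of 2 cultures of A172 was sequenced from a stranded mRNA library kit, per the labels, 1 library in each group. The aligner, quantification tool, annotation, genome build and strand setting were not given in the sources used. The authors deposited FPKM for each library, per the file headers, whose scaling is not stated, so depth is unknown and no counting interval is given. Their log2 ratio of resistant over parental and their p-values and q-values are also deposited, from a test that is not stated.

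Here 1 was added to each FPKM and the log2 of resistant over parental was taken, which understates the change of low genes. Genes entered with 1 FPKM or more in at least 1 library and were called at a log2 fold of 1 or more in size. The members, the 9 lists and the settings were chosen with earlier results of these data known. Named genes were the members, the called genes of each list or otherwise its 2 largest folds, and the genes next to a called member; PHAX, GRAMD3, OLIG2 and CD44 were chosen after their values were seen. GENCODE release 29 (GRCh38) held 15531 of the identifiers, and 96.9% of their listed loci contained the GENCODE gene. Some genes of these pathways were left out of the lists and are not reported here, and of the 84 tested genes in the lists only those named by the rule are given with values. Promoter windows are from RefSeq. Protein sequences were not used here. Python 3.11.15, pandas 2.3.3 and NumPy 2.4.6 were used.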

Additional observations from a re-analysis of the deposited data

How the results depend on the processing

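Settings were planned with earlier results of these data known, and with 1 library per group none could leave out a replicate. No paired analysis was possible because each group held 1 library. ALDH1A3 was called higher under each of the 8 other settings, with a log2 fold from 1.35 to 1.97. A smaller pseudocount, the plain ratio, no filter and the 1.5-fold threshold could not have removed that call. With upper quartile scaling its log2 fold was 1.35, and with the median fold set to 0 it was 1.38. It passed the 5 FPKM filter through the resistant library alone, at 5.23 FPKM. Only the scalings could change the sign of a fold, and under both every member kept its sign. The 1.5-fold threshold called 3 members higher and 2 lower, and it called 2020 genes higher and 1674 lower among all tested. Of the 84 tested pathway genes it called 11 higher and 13 lower, beside 14.5% and 12.0% of all genes tested. The order of these 2 counts differed from that at 2-fold, but with 1 library per group no spread is known that would separate them. With a pseudocount of 0.1, 1076 genes were higher and 1029 lower, and with the plain FPKM ratio 1118 and 1025. A filter of 5 FPKM left 9599 genes tested, of which 466 were called higher and 282 lower. Of the 63 pathway genes still tested, 5 were higher and 2 lower. That filter also moved the median log2 fold of the members to 0.19, because ALDH4A1 and ALDH6A1 were left out and 7 members remained. Of the 72 medians of pathway lists under other settings, 64 moved by less than 0.1. These include 1 per list at the 1.5-fold threshold, which cannot move a median. Depth is unknown, so no counting error can be set beside the lowest levels, such as those of ALDH1A3 and ALDH4A1.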
